A study of Mus musculus with 16 samples.

Results

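The collagen genes of the adolescent mouse brain were examined in whole brains after nicotine, ethanol or both. They were taken as the genes whose symbol consists of Col, a number, the letter a and a second number, which selects the collagen chains and leaves out genes with collagen-like names such as collagenases and collectins. This gave 44 of the 24062 genes in the table of read counts, and the same 44 were in the table of FPKM. RNA-seq was done on the whole brain, cerebellum included, of 16 mice labelled as female and of the inbred strain C57BL/6J, killed on postnatal day 45. There were 4 mice in each of 4 groups and 1 library per mouse. The WW mice drank water only. The NW mice were given 200 µg/ml nicotine in drinking water during 22 h of each day. In the Water-Ethanol group, which otherwise drank water, 20% v/v ethanol was offered in a daily session in the dark phase over the last 4 days, with a session of 4 h on the final day. NE animals received nicotine as in NW and ethanol as in Water-Ethanol. A whole brain holds many cell types, so that fewer cells of a type and less RNA per cell cannot be told apart in any value given here.

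Collagens are secreted or membrane proteins built from chains that wind around each other into a triple helix. Fibril-forming chains such as those of collagen types I and III give tissue its tensile strength and are made mainly by fibroblasts, in the brain those of the meninges and of larger vessels, and by bone-forming cells. Type IV chains build the sheet-like basement membrane around vessels, type VI forms beaded filaments beside it, and FACIT chains attach to the surface of fibrils. Transmembrane collagens such as Col25a1, whose product is found in amyloid plaques, are also made by neurons.

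The promoters of 35 of the 44 genes, 38 windows in all, were found in the RefSeq promoter sequences of GRCm38.p6, each running from 250 bases before to 50 bases after a transcript start. Genes for partner chains often lie head to head. Col4a1 and Col4a2 on chromosome 8 start 2 bases apart on opposite strands, Col4a4 and Col4a3 on chromosome 1 start 71 bases apart, and Col4a6 and Col4a5 on chromosome X start 1342 bases apart. The stretch shown for Col1a2 lies before the start of a type I chain that, with Col1a1, was farthest above the other mice in 1 WW library. The other stretches are the shared starts of divergent pairs whose levels are set side by side further on. All are written 5′ to 3′ on the strand of the first gene named, with promoter motifs in capitals. The motifs were the TATA box with the letters TATAAA, the CCAAT box with the letters CCAAT and the GC box with the letters GGGCGG, 3 in all and each searched on both strands.
Col1a2, chr6:4505368-4505617, + strand, upstream of the gene: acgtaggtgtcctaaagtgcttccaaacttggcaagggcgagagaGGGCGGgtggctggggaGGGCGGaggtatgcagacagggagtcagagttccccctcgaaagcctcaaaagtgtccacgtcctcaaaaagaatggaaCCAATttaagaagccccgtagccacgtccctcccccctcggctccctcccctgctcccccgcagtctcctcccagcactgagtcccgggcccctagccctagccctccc
Col4a4 and Col4a3, chr1:82586850-82586920, - strand, between the genes: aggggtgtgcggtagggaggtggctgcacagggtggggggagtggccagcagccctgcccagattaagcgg
Col4a1 and Col4a2, chr8:11312813-11312842, - strand, across both starts: ccgcagggtcctccccttggagacgccgcc

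The Col1a2 stretch, of 250 bases, held GGGCGG at 2 places and CCAAT at 1. The 2 type IV stretches shown held no match to the 3 motifs. They are only 71 and 30 bases long, too short for an absence to describe these promoters. GGGCGG was present in 23 of the 38 collagen windows (60.5%) and in 35.7% of all 32851 windows. CCAAT was present in 13 collagen windows (34.2%) against 37.4% of all windows, and TATAAA in 5 (13.2%) against 13.6%. A match is a description of the letters and not evidence of binding.

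Counted reads per mouse ranged from 27100352 to 32880979, of which 15581 to 23730 fell in the 44 genes. The neuronal gene Snap25 was at 69464 to 83413 normalized counts in the 15 mice other than WW replicate 20 and at 75630 in that mouse. Normalized counts are deposited counts scaled to library size with edgeR's TMM factors, and mice are named by group and replicate number. WW 20 stood apart from the other 15 mice. Its summed level of 8 nasal epithelium genes was 990.5 normalized counts against 87.7 to 368 elsewhere, with Cyp2g1, an enzyme of olfactory mucosa, at 146 against at most 32.9. Ibsp, a bone matrix protein, was at 60.6 against 1.02 to 9.72, and Bglap2, an osteocalcin gene, at 13.7 against at most 4.32. The summed level of 9 bone genes, 903, lay within the range of the other mice (726 to 910.5). Ibsp and Bglap2 make up little of that sum, so it cannot show whether bone transcripts were raised. The Xist transcript, made from an inactive X chromosome, was at 640 normalized counts in WW 20 and between 21863 and 28043 in the others, all labelled as female like WW 20, and the Y genes Ddx3y, Eif2s3y, Kdm5d and Uty had 0 counts in it. WW 21 and NW 10 were low in the cerebellar granule cell gene Gabra6, at 1069 and 1651 normalized counts against 3418 or more in the other 14 mice. The part of these differences in the collagen values was not tested, and results that rest on WW 20 are given with and without it.

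On the FPKM scale, which divides by transcript length and so allows genes to be compared, the 44 genes spanned mean levels from 0.0598 (Col6a6) to 12.6 (Col6a1). The 8 most abundant were Col6a1, Col25a1 (mean 11.04), Col4a2 (10.7), Col9a3 (9.49), Col1a2 (9.45), Col4a1 (8.39), Col1a1 (5.65) and Col11a2 (4.84). These chains came from 5 structural classes: beaded filament, transmembrane, basement membrane, FACIT and fibrillar. Levels within a class differed widely. The 6 type VI chains ran from 0.0598 to 12.6 FPKM and the 6 type IV chains from 0.184 to 10.7. In these genes the transcripts had a median GC content of 55.4% and a median of 48 exons, against 50.2% and 9 in all genes tested in a fit of all mice.

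**Figure D1:**
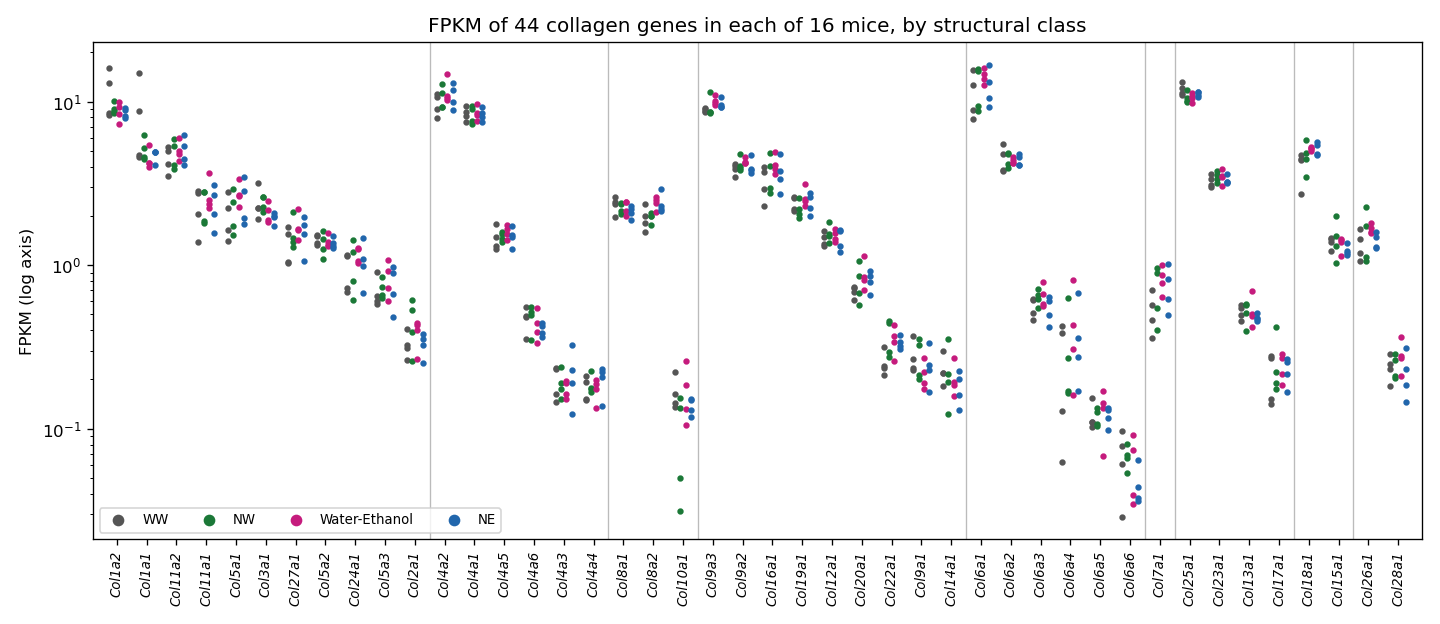
FPKM (log axis) of each of the 44 collagen genes, 1 point per mouse, with groups side by side and structural classes separated by lines (from the left: fibrillar, basement membrane, short chain network, FACIT, beaded filament, anchoring fibril, transmembrane, multiplexin and other). Class members span from 0.0598 to 12.6 FPKM on average, and the 2 highest points of Col1a1 and of Col1a2 are WW 18 and WW 20.

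No collagen gene passed the adjusted threshold of 0.05 in edgeR's quasi-likelihood test in any comparison. Against WW, 0 of 44 were called in NW, where 0% of the 15344 genes tested were called, 0 of 44 in Water-Ethanol (0.457% of 15323 genes) and 0 of 44 in NE (0.313% of 15313). NE against Water-Ethanol (43 members tested, since Col6a6 had too few reads) and NE against NW also gave 0 calls among members and 0% among all genes, as did the nicotine by ethanol interaction over all 16 mice. DESeq2 and edgeR's likelihood-ratio test each called 1 member, Col7a1, in Water-Ethanol against WW, where they called 3.94% and 4.05% of all genes. Both called 0 members elsewhere, where the shares of all genes were 0.802% and 0.736% for NW against WW, 3.38% and 2.45% for NE against WW, 0.0131% with each tool for NE against Water-Ethanol, 0.612% and 0.69% for NE against NW, and 0.0128% and 0.00641% for the interaction. At an unadjusted p under 0.05, 2 of 44 members (4.55%) differed between NW and WW, less than the 8.44% of all genes. Water-Ethanol against WW gave 11 of 44 (25%) beside 19.3% of all genes, and NE against WW gave 9 of 44 (20.5%) beside 17.5%. Of the 11, 8 were higher and 3 lower, where 10.3% of all genes were higher and 9.05% lower. Of the 9, 6 were higher and 3 lower, where 9.22% of all genes were higher and 8.23% lower. With counts adjusted for transcript GC content within each library, which was chosen after seeing the data, the split of members was 3 higher and 3 lower in Water-Ethanol, beside 8.33% and 10.1% of all genes, and 0 higher and 4 lower in NE, beside 6.24% and 5.95%. No member differed between NE and Water-Ethanol (5.8% of all genes), 2 of 44 differed between NE and NW (11.9%) and 3 of 44 had an interaction (6.76%). In either direction, the members' share was slightly above the background for Water-Ethanol and NE against WW and close to it for the interaction. In the other comparisons it was below the background. With the GC adjustment, or without WW 20, the members' share was below the background for Water-Ethanol and NE too. Before the GC adjustment and with WW 20 kept, the members higher in Water-Ethanol and in NE were a larger share than among all genes. None of these shares was tested, and the 3 comparisons with WW share the same 4 control mice.

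Without WW 20, the members with an unadjusted p under 0.05 numbered 1 for NW (5.78% of all genes), 5 for Water-Ethanol (14.3%) and 2 for NE (13.4%). Of the 44 members, each of these was a smaller share than among all genes. The median log2 fold change of the members was 0.05 for NW, 0.12 for Water-Ethanol and 0.02 for NE, beside medians of all genes tested of 0.01, 0.00 and 0.00. In NW it was -0.03 without NW 7. In NE it was -0.03 without WW 19, -0.05 without NE 2, -0.02 without NE 4 and -0.01 with an adjustment for GC content. In Water-Ethanol it lay between 0.06 and 0.17 under every alternative run. Groups did not overlap for 0 members in NW (5.98% of all genes), 3 in Water-Ethanol (10.8%), 2 in NE (10.7%), 0 in NE against Water-Ethanol (3.49%) and 2 in NE against NW (7.41%).

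**Figure D2:**
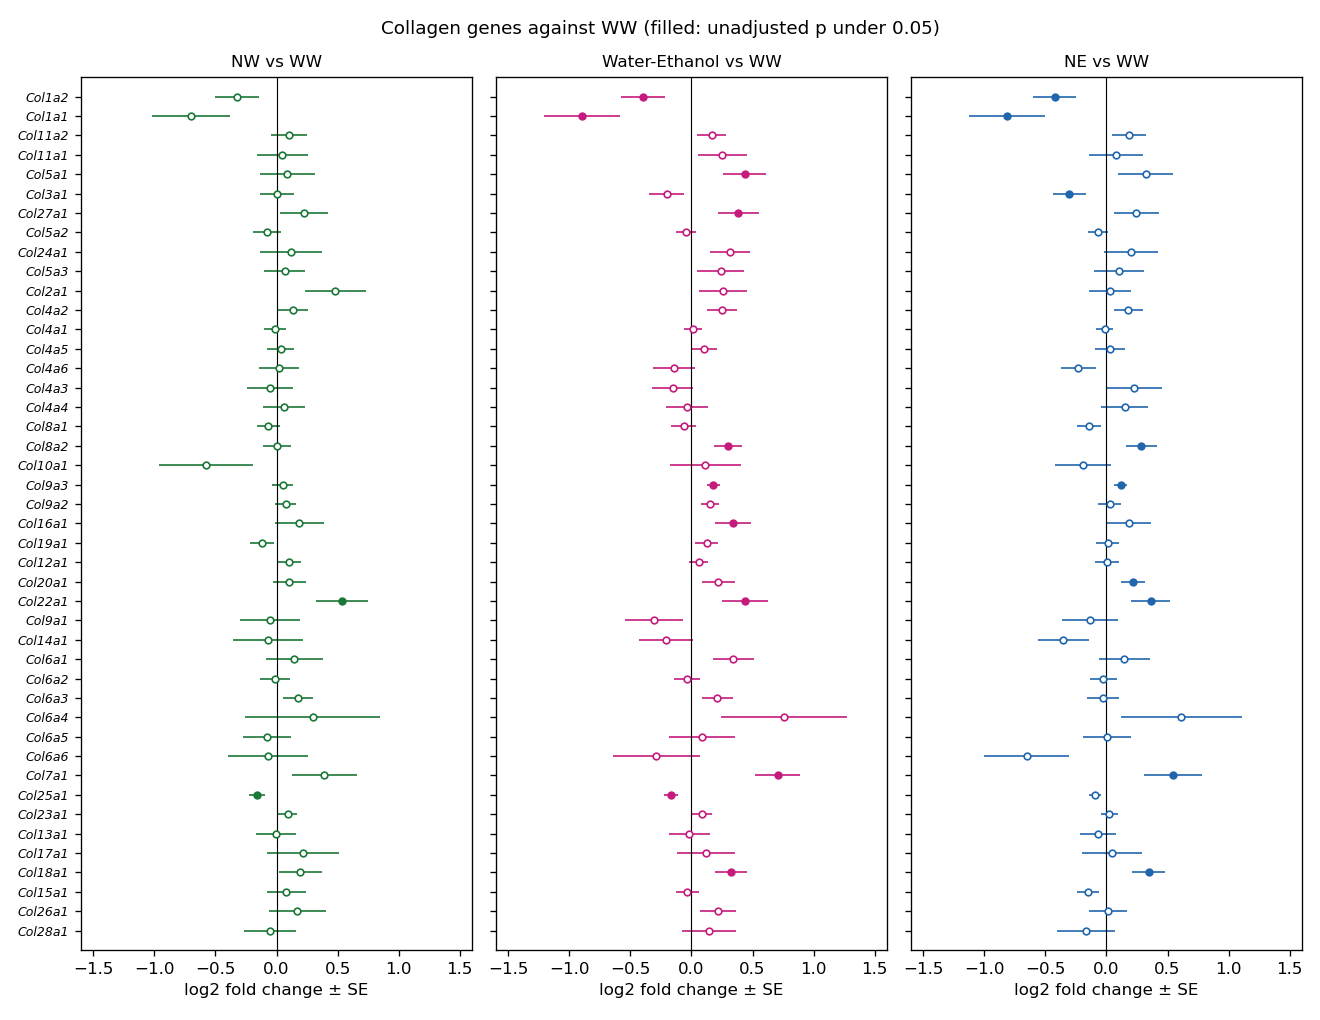
Log2 fold change of each collagen gene against WW with its standard error, in fits of 4 against 4 mice, in the class order of the FPKM plot, with filled points at an unadjusted p under 0.05. Col1a1 lies farthest below 0 in all 3 comparisons and Col6a4 farthest above 0 in Water-Ethanol and NE (0.75 and 0.61), with no member past the adjusted threshold.

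The fibril-forming chain Col1a1 was second only to the sparse Col6a4 in its spread among the WW mice, with a coefficient of variation of 59.5% against 71%. Col1a1 (chromosome 11, 94936270 to 94951856, 51 exons) encodes the main chain of type I collagen, and its normalized counts were 1164, 634, 2007 and 604 in WW 18, 19, 20 and 21. They were 816.5, 596, 697 and 616 in NW 7, 8, 10 and 11, 712, 561, 531.5 and 562 in Water-Ethanol 13, 14, 15 and 16, and 543, 659, 655 and 657 in NE 2, 3, 4 and 5. WW 20 and WW 18 were above all treated mice, and WW 19 and WW 21 were within the range of the treated mice. The log2 fold change was -0.70 in NW (SE 0.32, adjusted p 0.594), -0.89 in Water-Ethanol (SE 0.31, adjusted p 0.154) and -0.81 in NE (SE 0.31, adjusted p 0.212). Without WW 20 these were -0.23, -0.43 and -0.34, with adjusted p of 0.911, 0.355 and 0.474, while without WW 21 the Water-Ethanol value was -1.09 and passed (adjusted p 0.0346). An exact two-sided permutation test of the means, whose smallest possible p is 0.0286 with 4 against 4 mice, gave 0.314, 0.171 and 0.286.

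Col1a2 (chromosome 6, 4505697 to 4541543), the partner chain in the same helix, had normalized counts of 1875, 1254, 2326 and 1189 in WW, 1453, 1252, 1333 and 1277 in NW, 1435, 1333, 1056 and 1215 in Water-Ethanol and 1181, 1290, 1317 and 1156 in NE, in the order of mice given for Col1a1. The same mice, WW 20 and WW 18, were above every treated mouse. Its log2 fold change was -0.32 in NW (SE 0.18), -0.39 in Water-Ethanol (SE 0.18) and -0.42 in NE (SE 0.18), with adjusted p of 0.656, 0.258 and 0.244. Without WW 20 it was -0.12, -0.19 and -0.22.

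Col3a1 (chromosome 1, 45311538 to 45349706), the chain of type III collagen that is laid down with type I in soft tissues, was at 352, 354, 500.2 and 301 normalized counts in WW and at 406, 334, 418 and 360 in NW. It was at 384, 297, 283 and 343 in Water-Ethanol and at 310.5, 330, 272 and 310.2 in NE. WW 20 was again the highest of the 16 mice, but WW 18 was not raised. Each NE mouse was below each NW mouse, with a log2 fold change of -0.31 in NE against NW (SE 0.09, unadjusted p 0.00483, adjusted p 0.258, exact permutation p 0.0286), a comparison that does not use the WW mice. The permutation p follows from the lack of overlap, and 7.41% of all genes did not overlap in this comparison. Against WW the log2 fold change was -0.30 in NE (SE 0.13) and -0.13 without WW 20.

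**Figure D3:**
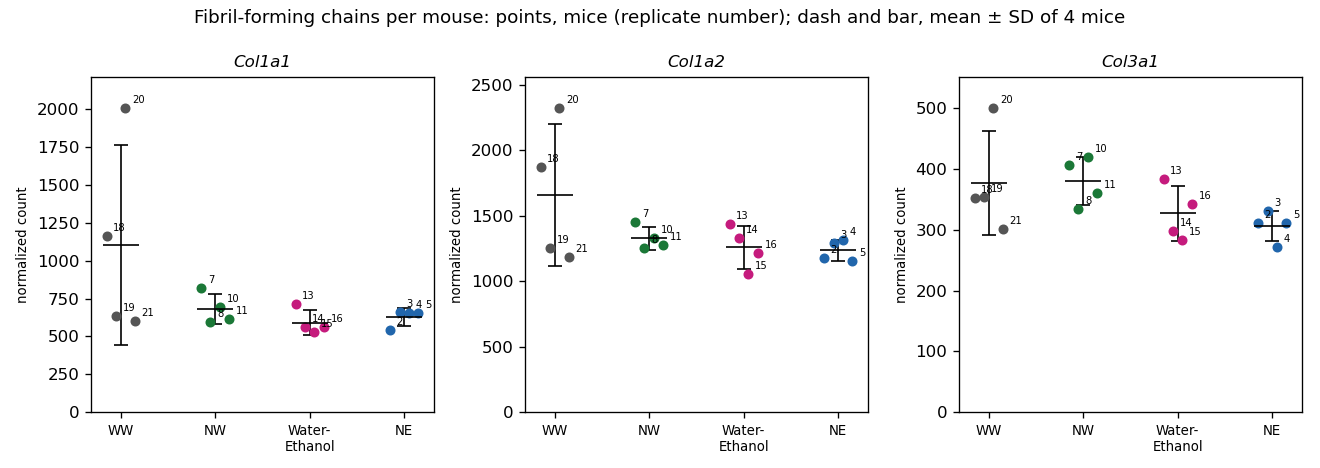
Normalized counts of Col1a1, Col1a2 and Col3a1 in each mouse, with the replicate number beside each point and the mean ± SD of 4 mice as a dash with bars, on axes that start at 0. WW 20 is the highest mouse for all 3 genes (2007, 2326 and 500.2), and WW 18 is second for Col1a1 and Col1a2 only.

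Relative to the mean of the other 15 mice, WW 20 was higher in Col1a1 by 1.62 on the log2 scale, in Col1a2 by 0.84, in Col6a4 by 0.62, in Col14a1 by 0.61, in Col3a1 by 0.58, in Col4a5 by 0.27, in Col8a1 by 0.25 and in Col4a3 by 0.21. It was the highest of all 16 mice in 5 members, namely Col1a1, Col1a2, Col3a1, Col4a5 and Col8a1, whereas it was the highest in 4.69% of all genes tested. In other members WW 20 was below the mean of the other 15 mice, though by less than it was above that mean in Col1a1 or Col1a2. The farthest were Col6a6 (-0.62), Col24a1 (-0.58), Col7a1 (-0.58) and Col27a1 (-0.53), and Col5a1 and Col6a1 were at -0.49. Over all members, the median log2 difference of WW 20 from the gene's mean was -0.09. WW 20 was the lowest of all 16 mice in Col6a2 and Col26a1. The cartilage chain Col2a1 was at 46.9 normalized counts in WW 20 and Col10a1, the chain of hypertrophic cartilage, at 12.7, ranks 11 and 8 of the 16 mice. Beside this, the summed level of 9 meningeal fibroblast genes was 3491 normalized counts in WW 20, within the 2920 to 3801 of the other mice, and that of 5 measured cartilage genes was 342 (280 to 368 in the others). By group, the meningeal sum, which includes Lum and Dcn, was 3470 to 3725 in WW, 3281 to 3741 in NW and 2920 to 3801 in the Water-Ethanol mice. In NE it was 3118 to 3305, so that each NE mouse was below each WW mouse, as the group means of Col1a1, Col1a2 and Col3a1 also were, and its part in those values was not tested. WW 18, second for Col1a1 and Col1a2, was at 52.9 normalized counts for S100a8 and 68.0 for S100a9, which neutrophils make, the highest of all mice for both. Whether these other transcripts share a source with the collagen counts was not tested.

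The rest of the fibrillar chains showed a different order of mice. Col5a1 (chromosome 2, 27886425 to 28039510), a chain of type V collagen that is built into type I fibrils and sets their width, was at 537, 345, 398 and 669 normalized counts in WW and 690.2, 421, 590 and 371 in NW. It was at 640.5, 549, 793 and 633.5 in Water-Ethanol and 823, 430, 681 and 475 in NE. Its log2 fold change was 0.43 in Water-Ethanol (SE 0.17, adjusted p 0.198), 0.09 in NW (SE 0.22) and 0.32 in NE (SE 0.22), and the mice of all groups overlapped with WW. Without WW 21 the Water-Ethanol value was 0.63 and passed (adjusted p 0.0255), and without NE 2 the NE value was 0.13. Col11a2 (chromosome 17, 34039437 to 34066242), a chain of type XI collagen best known from cartilage, lay between 581 (WW 19) and 1032 (NE 2) normalized counts, with log2 fold changes of 0.10, 0.16 and 0.18 (SE 0.15, 0.12 and 0.14) in NW, Water-Ethanol and NE. Col2a1 (chromosome 15, 97975602 to 98004724) was at 76.9, 89.2, 54.5 and 37.1 in NW against 56.2, 39.4, 46.9 and 41.9 in WW, so that NW 7 and NW 8 were above the WW mice, NW 10 was within their range and NW 11 was below it (log2 fold change 0.48, SE 0.25, adjusted p 0.641, and 0.28 without NW 8). As a class, 2 of 11 fibrillar chains were lower and 2 higher in Water-Ethanol at an unadjusted p under 0.05, 3 were lower and 0 higher in NE, and 0 passed in NW. The shares of all genes given above apply to these counts too, 9.05% lower and 10.3% higher in Water-Ethanol and 8.23% lower and 9.22% higher in NE, and a class of 11 is too small for a share to be read against them.

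Of the 6 type IV chains of the basement membrane, 0 had an unadjusted p under 0.05 against WW in any group. For most of them the intervals were too wide to show that levels were alike. Col4a1 (chromosome 8, 11198423 to 11312826) and Col4a2 (11312829 to 11449287), whose products form the network common to all vessels, were at means of 1584 ± 137 and 1771 ± 268 normalized counts in WW (SD, n = 4 mice). The log2 fold change of Col4a1 was -0.01, 0.01 and -0.01 in NW, Water-Ethanol and NE, with 95% confidence intervals of -0.21 to 0.18, -0.15 to 0.17 and -0.17 to 0.14. For Col4a2 it was 0.14, 0.25 and 0.18 (SE 0.12 each), with an interval of -0.01 to 0.51 in Water-Ethanol, and Water-Ethanol 15, at 2661, was the highest mouse. Col4a5 (chromosome X, 141475419 to 141689235) ranged from 228 in NE 3 to 332 in WW 20, and Col4a6 (141165403 to 141474076) from 63.2 in Water-Ethanol 15 to 107 in WW 18. Col4a3 (chromosome 1, 82586921 to 82722059) and Col4a4 (82450723 to 82586849), which with Col4a5 form the network known from kidney and ear, had only 32.9 to 75 and 31.8 to 54.5 normalized counts. In NW, Water-Ethanol and NE the log2 fold changes were 0.04, 0.10 and 0.03 for Col4a5 and 0.02, -0.14 and -0.23 for Col4a6. They were -0.05, -0.16 and 0.23 for Col4a3 and 0.06, -0.04 and 0.15 for Col4a4. The 95% confidence intervals reached -0.54 for Col4a6 and 0.73 for Col4a3, both in NE. The summed level of 9 vascular mural cell markers was 6328 to 6765 in WW and 6084 to 6897 in NW, but 5855 to 6029 in Water-Ethanol and 5767 to 6008 in NE. That of 8 endothelial markers was 8718 to 9103 in WW, 8486 to 8909 in NW, 7756 to 8466 in Water-Ethanol and 7842 to 8829 in NE. The lower sums in Water-Ethanol were not limited to vessel markers. The sum of 9 neuronal and glial genes was 365031 to 397282 in WW, 361675 to 376785 in NW, 341502 to 362857 in Water-Ethanol and 349186 to 381521 in NE. The part of any of these sums in the levels of the type IV chains was not tested.

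Of the type VI chains, Col6a1 (chromosome 10, 76708792 to 76726044) was the most abundant collagen gene by FPKM. It was at 1408, 879, 990 and 1722 normalized counts in WW, 1704, 1058, 1795 and 984 in NW, 1625, 1397, 1772 and 1514 in Water-Ethanol, and 1835, 1044, 1454 and 1167 in NE. The lowest mouse of Water-Ethanol, at 1397, was above the lowest mice of the other groups, which were at 879, 984 and 1044. The log2 fold change in Water-Ethanol was 0.34 (SE 0.17, adjusted p 0.283), and 1 WW mouse moved it to either side, to 0.54 without WW 21 (adjusted p 0.0316, a call) and to 0.21 without WW 19. It was 0.15 in both NW (SE 0.23) and NE (SE 0.21), and turned to -0.01 without NW 10 and to -0.03 without NE 2. Col6a4 (chromosome 9, 105990318 to 106096691) was the most variable member, with a 12.3-fold range between WW 19 (14.4 normalized counts) and Water-Ethanol 15 (177.5), and its log2 fold changes of 0.30, 0.75 and 0.61 carried standard errors of 0.55, 0.52 and 0.49. Leaving out 1 mouse moved them between -0.34 and 0.68, 0.23 and 1.14, and 0.15 and 0.997. Among WW mice alone Col6a4 was at 85.3, 14.4, 92.8 and 29.3.

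Col7a1 (chromosome 9, 108953745 to 108984875, 118 exons), whose product anchors epithelial basement membranes to the tissue beneath, came closest to the threshold. It was at 203, 103, 131 and 162 normalized counts in WW, 243, 151.5, 273.5 and 119 in NW, 249.8, 191, 299.9 and 227 in Water-Ethanol, and 299, 137, 244 and 182 in NE. Water-Ethanol had a mean of 242 ± 45.5 against 149.8 ± 43.0 in WW (SD, n = 4 mice each), and only Water-Ethanol 14 was within the WW range. The fold change was 1.63, or 0.70 on the log2 scale (SE 0.18, 95% confidence interval 0.30 to 1.105), with an unadjusted p of 0.00234 and an adjusted p of 0.0852. In NE the log2 fold change was 0.54 (SE 0.24, adjusted p 0.269, and 0.34 without NE 2) and in NW 0.39 (SE 0.27, adjusted p 0.718). Without WW 20 the Water-Ethanol difference was 0.65, with an adjusted p of 0.222. Col7a1 did pass with DESeq2 (adjusted p 0.0102), with edgeR's likelihood-ratio test (0.0145) and without WW 21 (0.0429, a fit that called 5.17% of all genes), and the adjusted p ranged from 0.0102 to 0.224 over the 18 alternatives. Its exons overlap Mir711, a microRNA gene, and reads of the overlap may be counted for either.

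The members whose mice all separated from WW, 3 in Water-Ethanol and 2 in NE, were of the FACIT and multiplexin classes. They were a smaller share of the 44 than the 10.8% and 10.7% of all genes that did not overlap. Col9a3 (chromosome 2, 180598222 to 180622185), a chain of type IX collagen, was at 728, 721, 708 and 715 normalized counts in WW, the narrowest spread of any group for this gene (SD 8.45). It was at 880, 786, 812 and 755.5 in Water-Ethanol and 839, 771, 743.5 and 750 in NE, so that all 8 ethanol mice were above all WW mice. Its NW mice, at 895, 703, 686.5 and 690, did not separate from WW. The log2 fold change was 0.18 in Water-Ethanol (SE 0.05, adjusted p 0.114), 0.12 in NE (SE 0.05, adjusted p 0.274) and 0.05 in NW (SE 0.08). Adjusted for GC content it was 0.11 in Water-Ethanol (adjusted p 0.293), 0.04 in NE (adjusted p 0.799) and -0.02 in NW, and without NE 2 the NE value was 0.07. An exact permutation test gave the smallest p it allows, 0.0286, for Water-Ethanol and for NE. This p follows from the lack of overlap and adds nothing to it, and 10.8% and 10.7% of all genes likewise did not overlap. Its exons overlap those of Tcfl5 on the opposite strand, and since the use of strand in counting is not given in the sources used here, reads of the overlap cannot be assigned to either gene. Col9a2, a second type IX chain picked out after its values were seen, was at 348, 321, 325 and 326 in Water-Ethanol and at 315, 266, 299 and 312 in WW, again with no overlap (log2 fold change 0.15, SE 0.07, adjusted p 0.265, and 0.08 when adjusted for GC content).

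Col18a1 (chromosome 10, 77052179 to 77166530), a basement membrane collagen from which endostatin is cut, was at 671, 629, 631 and 382.5 normalized counts in WW. In Water-Ethanol it was at 730.5, 690, 737 and 728 and in NE at 760.2, 695, 802 and 675, again above all WW mice, while NW was at 833, 697, 487 and 632. WW 21, one of the 2 mice low in cerebellar genes, was far below the rest of WW, and NW 10, the other, was the lowest of NW. The log2 fold change was 0.32 in Water-Ethanol (SE 0.13, adjusted p 0.201) and 0.34 in NE (SE 0.14, adjusted p 0.227). Without WW 21 these were 0.17 and 0.19, with adjusted p of 0.0801 and 0.142. Col22a1 (chromosome 15, 71798476 to 72034227), a FACIT collagen of tissue junctions, had the smallest p of the NW comparison, with a log2 fold change of 0.54 (SE 0.21, adjusted p 0.522) and normalized counts in NW of 81.7, 48.9, 86.1 and 55.2 against 57.2, 39.4, 44.9 and 45.1 in WW. It was also higher on average in Water-Ethanol by 0.44 (SE 0.19) and in NE by 0.36 (SE 0.16), each with overlapping mice. Col14a1, which binds to the surface of type I fibrils, ranged from 22.6 in NW 11 to 65.5 in NW 7, and its log2 fold change was -0.07, -0.21 and -0.35 with standard errors of 0.29, 0.22 and 0.21.

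The 3 short network chains include Col8a1 and Col8a2, the subunits of type VIII collagen of vessel walls and the cornea. Col8a2 (chromosome 4, 126286794 to 126314330) was at 286, 248, 220 and 194 normalized counts in WW, 237, 244.5, 215 and 253 in NW, 302, 290.4, 253 and 316 in Water-Ethanol and 258, 276, 350 and 269 in NE. Each NE mouse was above each NW mouse (log2 fold change 0.28, SE 0.10, unadjusted p 0.0194, adjusted p 0.336, exact permutation p 0.0286). Here too the permutation p follows from the lack of overlap, found for 7.41% of all genes. Without NE 4 the log2 fold change against NW was 0.17, and the NE difference from WW was 0.18. Against WW the log2 fold change was 0.30 in Water-Ethanol (SE 0.11, adjusted p 0.176) and 0.29 in NE (SE 0.13, adjusted p 0.276), with overlapping mice in both. Col8a1 (chromosome 16, 57624256 to 57754737) lay between 269 and 377 in all mice and differed from WW by -0.07, -0.07 and -0.14 on the log2 scale (SE 0.10 each). Col10a1 (chromosome 10, 34389981 to 34397085) had at most 22.3 normalized counts, and its log2 fold change of -0.58 in NW (SE 0.39) rests on NW 10 and NW 11, at 6.54 and 2.72.

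Col25a1 (chromosome 3, 130180845 to 130599883) was the steadiest member, with a coefficient of variation of 7.45% over the 16 mice. It was at 2529, 2340, 2391 and 2730 normalized counts in WW, 2076, 2242, 2496 and 2142 in NW, 2268, 2054, 2344 and 2191 in Water-Ethanol and 2357, 2333, 2392 and 2245 in NE. Of the Water-Ethanol mice 3 were below all WW mice, as were 3 of the NW mice and 2 of the NE mice. The log2 fold change was -0.16 in NW (SE 0.07, adjusted p 0.556), -0.17 in Water-Ethanol (SE 0.06, adjusted p 0.135) and -0.10 in NE (SE 0.05, adjusted p 0.339). Its interaction of nicotine with ethanol had the smallest p of the 44 members, 0.234 ± 0.0840 (SE) on the log2 scale with an unadjusted p of 0.0119 and an adjusted p of 0.678.

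**Figure D4:**
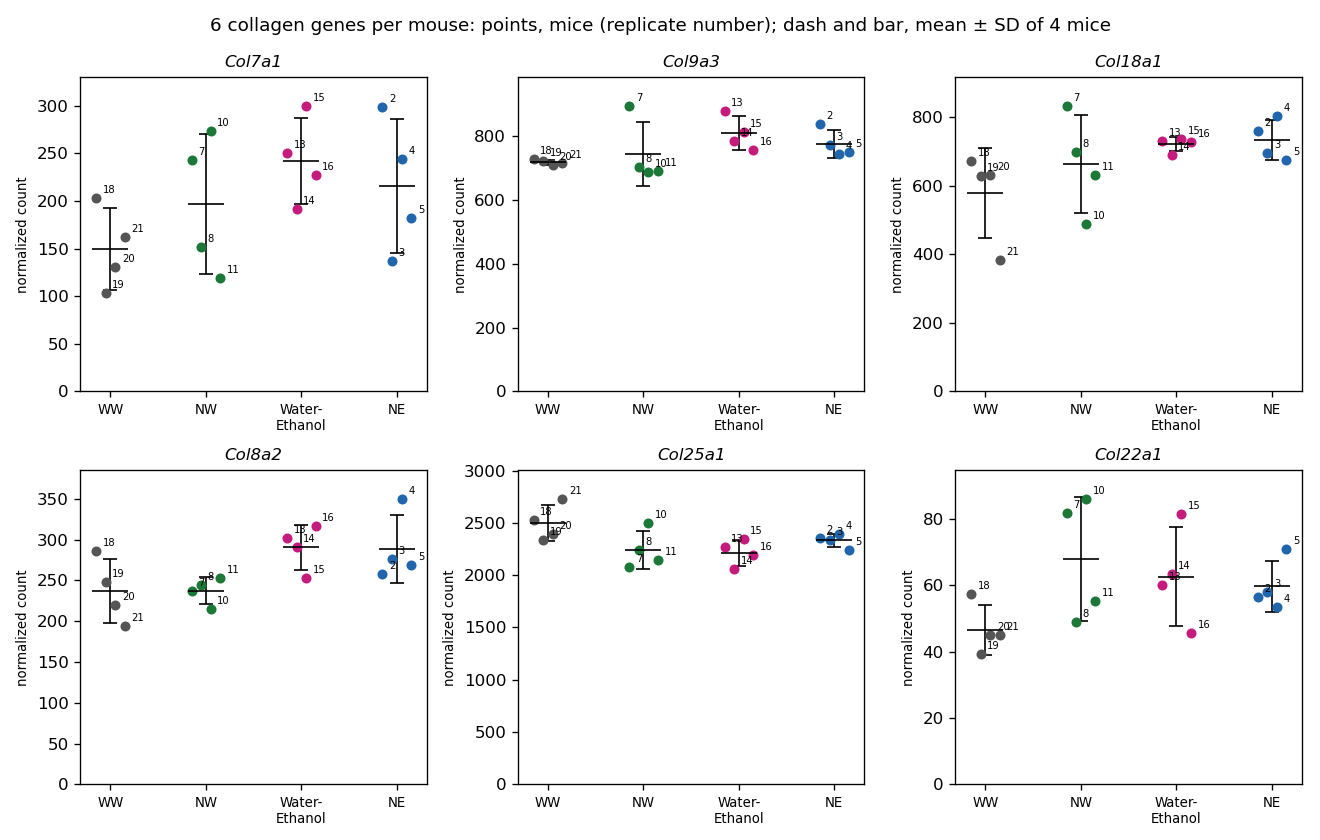
Normalized counts of Col7a1, Col9a3, Col18a1, Col8a2, Col25a1 and Col22a1 in each mouse, with replicate numbers and the mean ± SD of 4 mice per group, on axes that start at 0. All Water-Ethanol and NE mice are above all WW mice for Col9a3 and Col18a1, and the groups overlap for the other 4 genes.

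The other 21 members were those left after the members with the smallest p against WW were named, so larger p among them follow from that choice. Their log2 fold changes ran from -0.12 (Col19a1) to 0.22 (Col27a1) in NW, from -0.31 (Col9a1) to 0.38 (Col27a1) in Water-Ethanol and from -0.65 (Col6a6) to 0.24 (Col27a1) in NE, and their smallest adjusted p were 0.726, 0.231 and 0.284. At an unadjusted p under 0.05 there were 0 for NW, 2 for Water-Ethanol and 1 for NE. These were the fibrillar chain Col27a1 (0.38, SE 0.17) and the FACIT chain Col16a1 (0.34, SE 0.15) in Water-Ethanol and the FACIT chain Col20a1 (0.22, SE 0.10) in NE. Col6a3, a type VI chain, had an interaction of -0.42 (SE 0.19, adjusted p 0.718), and Col22a1 one of -0.61 (SE 0.28, adjusted p 0.725). All were named after their values were seen, apart from Col22a1.

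Pairs of genes were compared across mice after group means were removed. They were 8 pairs of collagen chains, most of them partners in 1 protein or in 1 fibril, and 2 pairs of a collagen gene with a marker of meningeal fibroblasts or of endothelium, 10 in all, with 100000 permutations each and Benjamini-Hochberg adjustment over the 10. Permutations exchanged mice across groups, as if the 16 values were independent. Where 2 mice were left out, group means were still those of all 16 mice, so these r are not free of the values left out. Col1a1 and Col1a2 varied together with Pearson's r = 0.948 (permutation p 1e-05, the smallest that these permutations can give, adjusted p 5e-05, n = 16 mice) and Spearman's rho = 0.862 (permutation p 4e-05), and r was 0.878 without WW 20 and WW 21, the 2 mice farthest from the median. Col6a1 and Col6a2 had r = 0.882 (permutation p 1e-05, adjusted p 5e-05) and rho = 0.915 (permutation p 1e-05), with r = 0.844 without the 2 farthest mice. Col4a1 and Col4a2 had r = 0.867 (permutation p 4e-05, adjusted p 0.000133) and rho = 0.824 (permutation p 0.0002), with r = 0.869 without the 2 farthest mice. Col1a1 and Col3a1 had r = 0.778 (permutation p 0.00071, adjusted p 0.00177) and rho = 0.665 (permutation p 0.006), which dropped to r = 0.449 without WW 20 and WW 21 and so rests on those mice.

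The other divergent pairs did not show so high an r, but their counts were far lower. Col4a3, Col4a4 and Col4a6 had at most 75, 54.5 and 107 normalized counts in a mouse, against at least 1372 and 1465 for Col4a1 and Col4a2. At low counts the sampling of reads adds spread of its own, so a low r cannot show that the 2 chains vary separately. Col4a3 and Col4a4 had r = 0.505 (permutation p 0.0477, adjusted p 0.0953) and rho = 0.321 (permutation p 0.225), and Col4a5 and Col4a6 had r = -0.334 (permutation p 0.206, adjusted p 0.257) and rho = -0.432 (permutation p 0.0974). Col9a1 and Col9a3 gave r = 0.461 (permutation p 0.0659, adjusted p 0.11) and rho = 0.506 (permutation p 0.048), and Col11a1 and Col5a2, chains that can share a fibril, gave r = 0.406 (permutation p 0.117, adjusted p 0.167) and rho = 0.374 (permutation p 0.154). Without the 2 farthest mice of each pair r was 0.255, -0.419, 0.417 and 0.491. Col1a1 was not related to Dcn, a proteoglycan of meningeal fibroblasts (r = 0.0911, permutation p 0.712, adjusted p 0.791, rho = 0.112, permutation p 0.681, r without the farthest mice 0.0256), nor Col4a1 to the endothelial gene Cldn5 (r = -0.0641, permutation p 0.811, adjusted p 0.811, rho = 0.135, permutation p 0.617, r without the farthest mice -0.257).

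**Figure D5:**
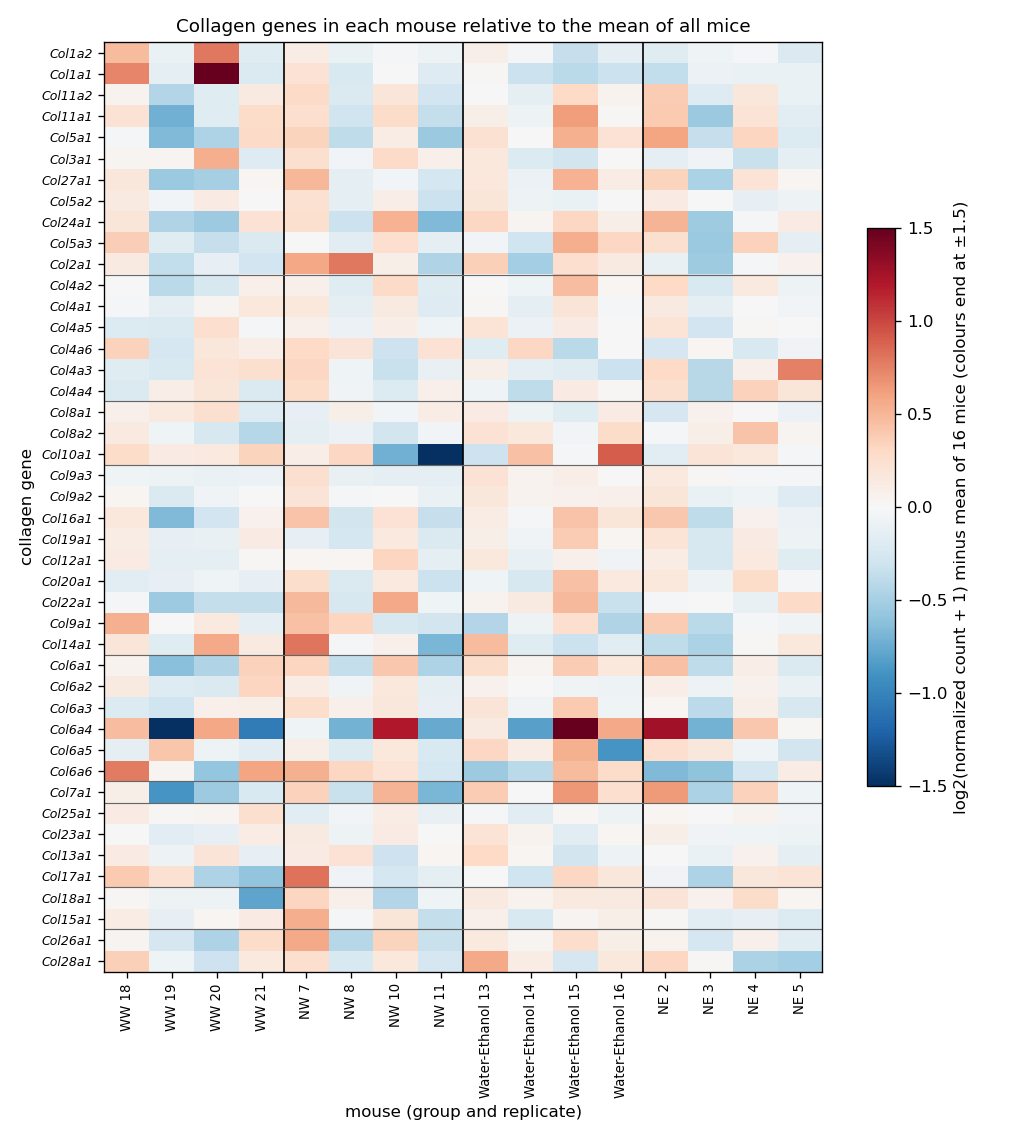
Log2 normalized count of the 44 collagen genes (rows, by class) in the 16 mice (columns, by group) minus each gene's mean over all mice, with red above and blue below the mean. Col1a1 and Col1a2 are red in WW 18 and WW 20, and a set of rows that includes Col6a4, Col7a1, Col5a1 and Col11a1 is blue in WW 19, NW 11 and NE 3 and red in Water-Ethanol 15 and NE 2.

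The genes that act on collagen chains were counted beside them. Of 9 collagen receptors tested, 1 was called, in Water-Ethanol against WW, where 0.457% of all genes were called. Itga10 (chromosome 3, 96645584 to 96664519), the alpha chain of an integrin that binds collagen, was higher in Water-Ethanol than in WW by 0.69 on the log2 scale (SE 0.13, adjusted p 0.0471). It was at 202, 170.2, 148.5 and 204 normalized counts in WW and 244, 272.5, 349.9 and 296 in Water-Ethanol, so that the groups did not overlap, and at 342, 201, 315 and 209 in NE, where the log2 fold change was 0.57 (SE 0.18, adjusted p 0.147, and 0.0414 with DESeq2). The Water-Ethanol call was lost in 11 of the 18 alternatives, among them those without WW 19, without WW 20 and without each Water-Ethanol mouse in turn, with adjusted p from 0.0550 to 0.146 in those 11. Over all 18 it ranged from 0.000129 to 0.146.

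Of 15 chain-modifying and folding genes, 0 were called in any comparison. At an unadjusted p under 0.05, 2 were higher in Water-Ethanol, where 10.3% of all genes were higher. These were P4ha2, a subunit of prolyl 4-hydroxylase, at 384, 400.4, 422 and 401 normalized counts against 263.5, 281, 293 and 380.4 in WW (log2 fold change 0.41, adjusted p 0.0808), and the lysyl hydroxylase Plod2, with means of 309.6 ± 38.5 and 264 ± 22.5 (SD, n = 4 mice each). All Water-Ethanol mice were above all WW mice for both genes, and 10.8% of all genes did not overlap in this comparison, in either direction. Of 16 genes of procollagen processing and cross-linking, 0 were called. Bmp1, the protease that removes the C-propeptide of fibrillar procollagens, was at 2550, 2071, 2905 and 2364 in Water-Ethanol and at 2097, 1493, 1758 and 1778 in WW (log2 fold change 0.48, adjusted p 0.0632). Lum, a proteoglycan that binds fibrils, was at 114, 109, 96.9 and 93.4 in Water-Ethanol and 98.3, 103, 99.1 and 112.5 in NE against 124, 121, 149.5 and 148 in WW (log2 fold change -0.39 in both, with adjusted p of 0.108 and 0.112). Each of those 8 mice was below each WW mouse, and Lum is 1 of the 9 meningeal fibroblast genes whose sum was lower in NE. Of 4 collagen-degrading proteases tested, 0 were called and 0 had an unadjusted p under 0.05. The cathepsin Ctsk had means of 114 ± 15.4 (WW), 97.5 ± 16.4 (NW), 102 ± 7.91 (Water-Ethanol) and 98.6 ± 10.0 (NE), and Mmp9 had 53.5 ± 16.3, 44.0 ± 8.62, 47.4 ± 11.4 and 46.5 ± 9.75 (normalized counts, SD, n = 4 mice each).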

How the data were processed

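RNA-seq libraries of 16 mouse brains were sequenced as 150-base single reads. Per the submitters' processing notes, bcl2fastq 1.8.4, FastQC, Trimmomatic 0.32, TopHat2, Cufflinks and Cuffdiff were used, with mm10 (GRCm38) as genome. The authors deposited whole read counts per gene, without normalization, from a counting program that is not given in the sources used here, and FPKM from the Cufflinks tools, which are scaled to transcript length and library size. The labels and the methods name different library kits, the latter a stranded one, and whether strand was used in counting is not given in the sources used here. Replicates are separate mice.

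Counts were normalized with TMM factors and tested with edgeR 4.0.16 (R 4.3.3; quasi-likelihood test, default filter on low counts) in fits of the groups compared, with Benjamini-Hochberg adjustment over all genes tested and a threshold of 0.05. FPKM were used for levels only and, as an alternative, tested with limma 3.58.1 on log2(FPKM + 1) and log2(FPKM + 0.1). Log2 values per mouse are of normalized count + 1. For single genes, group means were also compared over all exchanges of mice between groups (exact permutation, both tails). Python 3.11.15, numpy 2.4.6, pandas 2.3.3 and matplotlib 3.10.9 were used for the rest. The tests were tested on simulated data, in which the changed genes had larger changes than the collagen genes and higher counts than many of them. How often smaller changes would be missed was not tested. No set test was run.

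Genes given in full were those called, the 6 members with the smallest p against WW per comparison, the 8 highest by FPKM, Col1a1, Col1a2 and the 6 others most raised in WW 20, and the type IV chains, 23 in all. Of partner lists, called genes or the 2 with the smallest p are named. The members and lists were chosen with earlier results of these data known. Alternatives were RLE factors, DESeq2 1.42.0, edgeR's likelihood-ratio test, other filters, FPKM, a fit of all mice and leaving out mice. GC offsets, and leaving out WW 20, WW 21 and NW 10 together, were chosen after seeing the data. Exon positions are those of the deposited count table.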

Additional observations from a re-analysis of the deposited data

Results flagged for a closer look

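In the 23 named members and 7 partner genes, a mouse was set apart from the other 3 of its group by a gap that, as a share of the group's range, passed Dixon's 95% critical value in 7 of 120 combinations of gene and group, and chance flags about 1 in 20. Col18a1 was at 382.5 normalized counts in WW 21, with the nearest other WW mouse at 629. Col1a1 was at 712.5 in Water-Ethanol 13, above the 562 of the next mouse, and at 543 in NE 2, below the 655 of the next. Col14a1 was at 52.0 in Water-Ethanol 13, against at most 32.9 in the rest of its group. Col9a3 was at 895 in NW 7, against at most 703 in the rest of NW. Col4a2 was at 2661 in Water-Ethanol 15, against at most 1965 in the rest of its group. Mmp9, a collagen-degrading protease, was at 64.4 in Water-Ethanol 14, against at most 42.9. None of the 7 was in WW 20.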

How the results depend on the processing

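The count of collagen genes called against WW in Water-Ethanol was 0 and became 1 with DESeq2 and 1 with edgeR's likelihood-ratio test, Col7a1 in each case, where these tools called 603 and 620 genes in all against 70. Leaving out 1 mouse at a time gave 0 to 4, and the 4 without WW 21, of 797 genes called in that fit, were Col7a1, Col1a1 (log2 fold change -1.09), Col5a1 (0.63) and Col6a1 (0.54). In the other comparisons and the interaction 0 members were called under every alternative run. Members with an unadjusted p under 0.05 ranged from 5 (without WW 20) to 16 (without WW 21) in Water-Ethanol, from 1 (without NE 2) to 9 in NE, and from 0 (without NW 7) to 4 (fit of all 16 mice) in NW. They ranged from 0 to 5 (without NE 2) in NE against Water-Ethanol, from 1 (without NE 4) to 6 (without NW 10) in NE against NW and from 1 to 5 for the interaction. GC offsets gave 6 and 4 in place of 11 and 9 and moved the split of members above and below 0 in NE from 27 and 17 to 21 and 23, the cause of which was not tested. The sign of the log2 fold change held under every alternative run for 15 of the 44 members (NW), 34 (Water-Ethanol) and 28 (NE), and the medians near 0 changed sign in NW, NE and NE against NW. No paired analysis was possible because the groups share no replicate numbers. The 4 mice per group and normalized counts as low as 2.72 in a mouse limit what could be seen.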

Other observations

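A set of members varied together from mouse to mouse. After group means were removed, Col7a1 was related to Col16a1 (r = 0.945, rho = 0.921), Col11a1 (r = 0.931, rho = 0.897), Col6a1 (r = 0.919, rho = 0.903) and Col5a1 (r = 0.909, rho = 0.865) over the 16 mice. The pairs were picked out after their values were seen, so no test is given. Without NE 3 and NW 11, the 2 mice farthest from the median of Col7a1, r was 0.934, 0.928, 0.903 and 0.882. Group means were still those of all 16 mice. Col7a1 also varied with Meg3, a long noncoding RNA of an imprinted locus that neurons express (r = 0.955, rho = 0.926, and r = 0.941 without those mice). Meg3 was at 67733, 36029, 42331 and 79330 normalized counts in WW, and 83916, 45517, 93690 and 41437 in NW. It was at 77486, 63252, 108751 and 74113 in Water-Ethanol, and at 94751, 40185, 79822 and 57407 in NE. The mice lowest in Meg3 within their groups, WW 19, NW 11, Water-Ethanol 14 and NE 3, were also the lowest in Col7a1. All values come from the same libraries and scaling, and the cause was not tested.

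Members lowest in their own group made up 54.5% of the 44 for WW 19, 56.8% for NW 11, 54.5% for Water-Ethanol 14 and 54.5% for NE 3, where 24.4%, 23.1%, 28.7% and 28.5% of all genes tested were lowest in the same mice. Summed over the 44 genes, FPKM were 102 for WW 19, 104.5 for NW 11, 117 for Water-Ethanol 14 and 108 for NE 3, the lowest of each group, against 139 in NW 7, the highest of all mice.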
